A study of Homo sapiens with 36 samples.

Results

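The regions described here are stretches of chromatin in BT549 cells that carried an ATAC-seq peak in all 4 libraries of cells kept in DMSO and in none of the 4 libraries of cells given dexamethasone (DEX) with DMSO for 4 h. They are called closed regions below, and there were 728 of them among the 189959 merged regions of the experiment, 0.383%. The opposite pattern, no DMSO library and 4 of 4 DEX_DMSO libraries, was met by 2526 regions (opened regions, 1.33%). Since these 8 libraries chose the closed regions, the difference between them is a description and was given no test. The rule is strict on both sides: 1463 regions held by 3 of 4 DMSO and 0 of 4 DEX_DMSO libraries lay just outside it, as did 1203 regions held by 4 of 4 DMSO and 1 of 4 DEX_DMSO libraries.

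BT549 is a mesenchymal triple-negative breast cancer line, and ATAC-seq reads open chromatin through the insertion of adapters by a transposase. The study gave the cells 3 kinds of perturbation. In the BRM014 experiment (4 libraries per group) they received 500 nM DEX with DMSO (DEX_DMSO), DMSO alone (DMSO), 500 nM DEX with 10 µM BRM014 (DEX_BRM014) or BRM014 alone (BRM014), each for 4 h. In the GATA6 experiment (3 libraries per group) a SMARTpool siRNA against GATA6 or control siRNA was present for 72 h, and cells then got 500 nM DEX for 2 h or vehicle (siCtl_DEX, siCtl_Veh, siGATA6_DEX, siGATA6_Veh). In the last experiment siRNA against BRG1 and BRM (siBRG1_siBRM) stood against control siRNA (siCtl_only), with 4 libraries per group, and the labels give no DEX and no duration for it. All cells were labelled wild type and grown in medium with serum, the only cell line is BT549, and the second line of the series, MDA-MB-231, was not analysed here.

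DEX is a synthetic ligand of the glucocorticoid receptor, a nuclear receptor that enters the nucleus once bound and acts at enhancers, where it raises some genes and represses others, inflammatory genes among them. SWI/SNF complexes are ATP-driven remodellers that move or evict nucleosomes, with BRG1 (SMARCA4) or BRM (SMARCA2) as the motor, and BRM014 inhibits both motors. GATA6 is a zinc-finger transcription factor of endoderm that can bind nucleosomal DNA. A peak list records where signal passed the threshold of the peak caller, so the loss of a peak says that the signal fell under that threshold and not that the chromatin was fully shut.

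The libraries held 37184 to 131423 peaks. In the 2 groups that define the closed regions there were 98808 ± 3831 peaks with DEX_DMSO and 94069 ± 4805 with DMSO (SD, n = 4 each), so the regions without a peak after DEX were not accompanied by shorter lists. The background level recovered from the deposited fold and p of weak peaks, a measure of relative depth, was 0.252 to 0.297 with DEX_DMSO and 0.241 to 0.305 with DMSO. Peaks lay at VIM, ZEB1, CDH2, CAV1 and AXL, genes of mesenchymal breast cancer cells, in 36 of 36 libraries, and at the luminal genes ESR1 and GRHL2, the leukocyte gene PTPRC and the endothelial genes PECAM1 and CDH5 in 0 of 36. The other markers were mixed, with a peak at CDH1 in 21, at EPCAM in 11, at CD3E in 16 and at KDR in 24 of 36 libraries. Accessibility does not measure how much GATA6, BRG1 or BRM was left after siRNA.

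Few closed regions lay at gene starts, and those that did are shown because the sequence around a start was at hand while that of the distal regions was not used here. Of the 682 closed regions on chromosomes that the promoter table covers, 13 (1.91%) overlapped a RefSeq promoter window of 300 bases, from 250 before to 50 after the start, against 1.55% of opened regions, 20.6% of regions held by all DMSO and DEX_DMSO libraries (kept regions) and 8.28% of all regions. The 4 strongest of them at protein-coding genes were at ARHGAP40 (chr20:38601559-38601858, plus strand), a GTPase-activating protein, at RHOD (chr11:67056597-67056896, plus strand), a small GTPase of endosomes and actin, at LYPLAL1 (chr1:219174711-219175010, plus strand), a lysophospholipase-like protein, and at the imprinted gene MEST (chr7:130491835-130492134, plus strand). The windows are from RefSeq, build GRCh38.p14, and capitals mark the bases that the closed region covers.
ARHGAP40: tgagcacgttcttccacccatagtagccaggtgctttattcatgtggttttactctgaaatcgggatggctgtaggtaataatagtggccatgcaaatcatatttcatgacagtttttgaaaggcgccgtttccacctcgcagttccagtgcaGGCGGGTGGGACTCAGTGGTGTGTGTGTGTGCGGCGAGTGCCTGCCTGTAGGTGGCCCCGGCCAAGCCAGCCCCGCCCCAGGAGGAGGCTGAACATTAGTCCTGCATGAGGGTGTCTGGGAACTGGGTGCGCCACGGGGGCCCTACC
RHOD: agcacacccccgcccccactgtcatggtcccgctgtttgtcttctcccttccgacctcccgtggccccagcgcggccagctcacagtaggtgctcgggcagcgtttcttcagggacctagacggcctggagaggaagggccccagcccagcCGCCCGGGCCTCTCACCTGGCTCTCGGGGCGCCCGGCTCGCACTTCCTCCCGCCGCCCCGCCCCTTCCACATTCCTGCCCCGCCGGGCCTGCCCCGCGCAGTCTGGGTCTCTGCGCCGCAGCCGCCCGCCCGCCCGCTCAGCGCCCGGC
LYPLAL1: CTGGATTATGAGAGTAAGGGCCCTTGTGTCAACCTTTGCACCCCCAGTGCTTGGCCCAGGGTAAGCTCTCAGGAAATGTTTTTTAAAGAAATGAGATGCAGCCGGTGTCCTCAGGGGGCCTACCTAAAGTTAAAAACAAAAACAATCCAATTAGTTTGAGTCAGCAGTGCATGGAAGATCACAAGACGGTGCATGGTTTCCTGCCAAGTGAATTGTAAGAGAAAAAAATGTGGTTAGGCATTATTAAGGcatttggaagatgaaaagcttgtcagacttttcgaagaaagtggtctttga
MEST: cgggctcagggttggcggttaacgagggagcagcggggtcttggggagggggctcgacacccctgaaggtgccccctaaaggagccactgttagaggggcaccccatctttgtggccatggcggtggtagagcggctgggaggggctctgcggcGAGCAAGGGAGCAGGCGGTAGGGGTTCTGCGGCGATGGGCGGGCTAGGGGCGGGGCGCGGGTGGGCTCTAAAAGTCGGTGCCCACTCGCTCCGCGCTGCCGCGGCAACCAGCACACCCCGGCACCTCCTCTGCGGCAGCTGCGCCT

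These starts did not behave alike at 2 h. MEST held a peak in 1 of 3 siCtl_DEX and 3 of 3 siCtl_Veh libraries, and in 2 of 3 siGATA6_DEX and 3 of 3 siGATA6_Veh libraries. RHOD held one in 2 of 3 siCtl_DEX libraries and in every library of siCtl_Veh, siGATA6_DEX and siGATA6_Veh. LYPLAL1 and ARHGAP40 held a peak in all 12 libraries. At LYPLAL1 the rank of the fold enrichment among the 73912 regions that all 12 libraries hold was at percentile 7.61, 0.865 and 14.9 in the siCtl_DEX libraries, against 27.6, 19.4 and 29.9 in the siCtl_Veh libraries, with no overlap. At ARHGAP40 it was 49.6, 58.1 and 21.4 in the siCtl_DEX libraries, against 17.4, 41.1 and 22.8 in the siCtl_Veh libraries, so these groups overlapped, and the 2 highest values came with DEX.

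Short motifs were searched on both strands of 13 windows, 1 for each closed region that lay over a promoter. Where a region lay over a pair of windows, the one with more overlap was taken. The AP-1 motif TGANTCA occurred in 2 of them (15.4%, against 7.72% of all 34943 windows searched), and the TEAD motif CATTCC in 4 (30.8%, against 14.04%). The whole window was searched, and the TEAD matches at PFKP and at the lncRNA LALTOP lay outside the bases that the closed region covers. Those at RHOD and SLC2A11 lay within them. The GATA motif AGATAA occurred in 0 (10.4% of all windows) and the glucocorticoid receptor half-site AGAACA in 1 (7.69%, against 14.8%). The median share of G and C bases was 70.3% in the 13 windows and 58.7% in all windows. The motif shares were not adjusted for it. A match is only a run of letters, and 13 windows are few.

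The closed regions were weak peaks in the cells they were called open in. Their mean fold enrichment over the 4 DMSO libraries, the authors' value for the peak over its local background, had a median of 5.46 (lowest 3.16, highest 11.7), against 5.83 for regions held by 4 DMSO and 1 DEX_DMSO libraries and 12.8 for kept regions. Within the ranked peak list of each DMSO library the closed regions stood at a median percentile of 26.4 (1.18 to 64.4), against 29.4 for regions held by 4 DMSO and 1 DEX_DMSO libraries and 68.6 for kept regions. Their median −log10 q was 5.90, against 6.29 and 24.8 in the same classes. Only 15 closed regions (2.06%) lay above percentile 50, against 76.7% of kept regions. Their median width was 207 bp, against 208 bp for regions held by 4 DMSO and 1 DEX_DMSO libraries, 279 bp for kept regions and 142 bp for all regions, and the opened regions, ranked in the DEX_DMSO libraries, were wider at 256 bp and stronger at percentile 36.2.

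**Figure D1:**
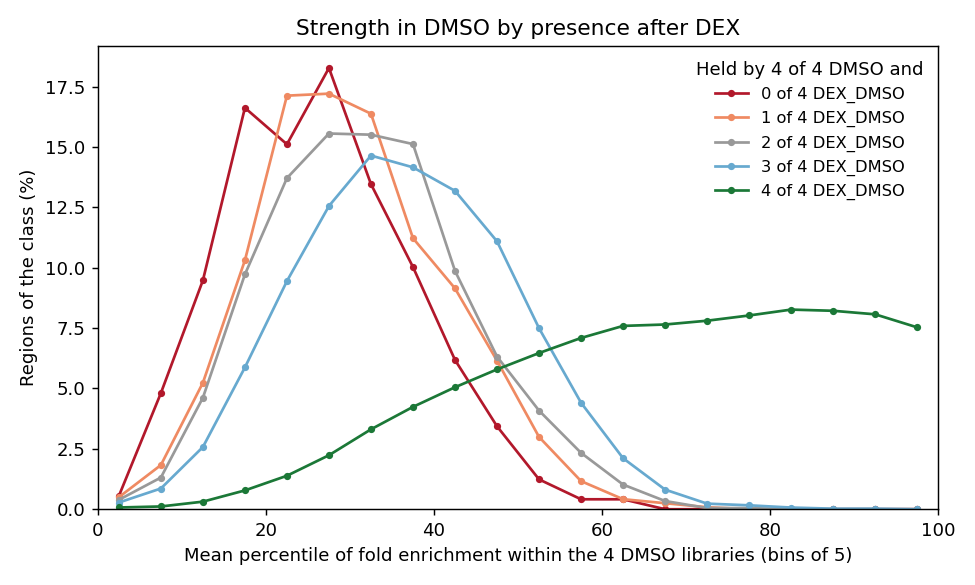
Distribution of the mean percentile of fold enrichment within the 4 DMSO libraries (x axis, bins of 5 percentile points) as the share of regions in each class (y axis, percent), for regions held by 4 of 4 DMSO and by 0 to 4 DEX_DMSO libraries. The closed regions (0 of 4) have a median at percentile 26.4 and the kept regions (4 of 4) at percentile 68.6.

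The strongest closed regions were distal. The first by rank was at chr6:140367021-140367324, at a distance of 992524 bp from the nearest protein-coding gene, CITED2, a transcriptional co-regulator that binds CBP and p300, and its folds in the DMSO libraries were 8.87, 12.3, 10.99 and 14.6. Next came a region inside HMCN1, an extracellular matrix protein (chr1:185823564-185823734, percentile 60.7), and a region 32464 bp from MYLK4, a myosin light chain kinase (chr6:2630933-2631412, percentile 60.5). SPHKAP, an anchor of protein kinase A, at a distance of 207807 bp, TCF4, a basic helix-loop-helix factor, at 276403 bp, and BNC2, a zinc-finger protein whose region lies inside the gene (chr9:16715325-16715871), followed at percentiles 59.7, 57.9 and 56.2. FAM124B, CCER1, CSMD3 and TSHR, the thyrotropin receptor gene, completed the 10 with percentiles between 53.3 and 54.2.

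Most closed regions lay away from gene ends. Of the 728, 653 (89.7%) had no end of a protein-coding or lncRNA gene within 1 kb, against 91.6% of opened, 80.8% of intermediate, 68.5% of kept and 80.8% of all regions. Intermediate regions, held by 1 to 3 DMSO and 1 to 3 DEX_DMSO libraries, served as the comparison for weak peaks throughout (26780 regions). The median distance to the end of a protein-coding gene was 55365 bp, against 34352 bp for opened, 12559 bp for kept and 21904 bp for all regions. Inside a protein-coding gene lay 314 closed regions (43.1%), against 52.1% of all regions. Chromosome 4 held 8.38% of closed and 4.87% of all regions, chromosome 5 held 8.38% and 6.57%, chromosome 17 held 1.92% and 3.76%, and chromosome 19 held 1.37% and 3.55%. These shares are descriptions of regions chosen by 8 libraries.

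Another closed region lay within 50 kb of 55 closed regions (7.55%), where 3.89% of all other regions had a closed region that near. Among the 2526 opened regions, which are more numerous, 29.0% had another opened region within 50 kb, where 13.2% of all other regions had one. An opened region lay within 50 kb of 94 closed regions (12.9%), a share near that 13.2%. Of 19974 protein-coding genes, 768 (3.84%) had a closed region inside or within 50 kb, 718 of them 1 region, 39 of them 2 and 11 of them 3. No protein-coding gene lay within 50 kb of 253 closed regions.

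The genes with 3 closed regions include neighbours that share theirs. HOXB2, HOXB3, HOXB4 and HOXB5, homeobox genes of the anterior-posterior axis, share regions at chr17:48547486-48547759, chr17:48572879-48573074 and chr17:48582530-48582911, 2 of which lie inside HOXB3. CHRM3, a muscarinic acetylcholine receptor, had regions at chr1:239354182-239354377, chr1:239658256-239658544 and chr1:239723789-239724087. ADGRL2, an adhesion G protein-coupled receptor, had all 3 of its regions inside the gene, PDLIM5, a PDZ and LIM domain protein of the actin cytoskeleton, had 2 inside, and PADI1, a peptidylarginine deiminase of epidermis, had 1 inside.

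Of 25 genes known to be induced by glucocorticoids, 3 (12%: DDIT4, ZBTB16 and SGK1) had a closed region within 50 kb and 15 had an opened one, where 3.84% and 14.4% of all protein-coding genes did. FKBP5, a co-chaperone of the receptor, had 0 closed and 9 opened regions, and TSC22D3, whose product GILZ dampens inflammation, had 0 closed and 5 opened regions. PER1, a clock gene, and NR3C1, the receptor gene itself, had neither. GATA6 had 0 closed regions and 1 opened region, and SMARCA4 and SMARCA2 had neither. The region counted for DDIT4, an inhibitor of mTOR signalling, lay nearer to DNAJB12 (chr10:72310822-72310987), that of the transcriptional repressor ZBTB16 lay inside the gene at chr11:114060653-114060855, and that of the kinase gene SGK1 lay 7943 bp outside it at chr6:134161183-134161442.

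Inflammatory and AP-1 genes are repressed by the receptor in many cell types. Of 24 NF-kB factor, cytokine and chemokine genes 1 (4.17%) had a closed region within 50 kb, near the 3.84% of all protein-coding genes. It was CXCL8, the neutrophil chemokine (chr4:73722041-73722215, 18441 bp from the gene), and IL6 had 0. Of 13 AP-1 factor genes 1 (7.69%) had one, JUN (chr1:58754210-58754368, 26502 bp from the gene). Matrix metalloproteinases with their inhibitors (0 of 13), mesenchymal and matrix genes (0 of 30), GATA and endoderm factors (0 of 14) and cell cycle genes (0 of 24) had none within 50 kb.

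Genes of the TGF-beta pathway and of basal mammary cells follow. Of 23 TGF-beta pathway genes 4 had a closed region (17.4%): the ligand TGFB1, the matrix protein TGFBI, and LTBP1 and LTBP2, which bind latent TGF-beta in the matrix. Of 19 basal mammary genes 4 had one (21.1%), among them MET, the hepatocyte growth factor receptor, with 2, the laminin chain LAMA3, and TP63, a p53-family factor of basal epithelium. Of 20 YAP and TEAD genes 2 had one, the co-activator YAP1 and the receptor tyrosine kinase AXL, and of 22 growth factor receptor and MAP kinase feedback genes MET and AXL did. AXL and TGFB1 share 1 region, inside CCDC97 at chr19:41310621-41310749. Of 22 SWI/SNF subunit genes SMARCB1 and ARID1B had a closed region, of 24 luminal genes GRHL2 had 2, of 10 neural markers MAP2 had 1, and none of 10 leukocyte or 10 endothelial markers had any. In all, 19 of 297 list genes (6.40%) had a closed region within 50 kb, 9 within 10 kb and 22 within 100 kb, where 2.03% and 5.84% of all protein-coding genes did at these distances. These are counts of a few genes, and no list was tested.

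The GATA6 experiment asks whether the same regions lose their peaks after 2 h of DEX in libraries that had no part in choosing them. A smaller share of the closed regions held a peak with DEX in both siRNA settings. With control siRNA, 64.1%, 62.1% and 80.9% of the closed regions held a peak in the siCtl_DEX libraries, against 89.97%, 88.6% and 96.8% in the siCtl_Veh libraries. With GATA6 siRNA, the shares were 62.1%, 65.2% and 73.2% in the siGATA6_DEX libraries, against 79.4%, 81.5% and 88.2% in the siGATA6_Veh libraries. The groups did not overlap in either setting.

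The difference was −22.8 percentage points with control siRNA (69.0 ± 10.3% with DEX, 91.8 ± 4.42% with vehicle; SD, n = 3 each) and −16.2 points with GATA6 siRNA (66.8 ± 5.73% with DEX, 83.0 ± 4.60% with vehicle). In each setting the two-sided exact permutation p was 0.1, the smallest that 3 libraries against 3 allow, and over both settings the mean difference was −19.5 points (exact permutation p = 0.005, the smallest possible; 0.035 adjusted over 14 tests). The background levels overlapped, at 0.492, 0.634 and 0.660 in siCtl_DEX and 0.577, 0.576 and 0.651 in siCtl_Veh. With the same number of best peaks kept in each library, the rule picked 477 regions of which 1 overlapped a closed region, and there the difference over both settings was −1.22 points (exact permutation p = 0.02). Those regions were at 99.4% with siCtl_DEX and 99.9% with siCtl_Veh, and at 97.1% with siGATA6_DEX and 99.0% with siGATA6_Veh. Such levels left little room for a difference.

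Regions of intermediate presence did not show the same difference. They held a peak at 67.2% with siCtl_DEX and 69.4% with siCtl_Veh, and at 69.3% with siGATA6_DEX and 66.5% with siGATA6_Veh. Taken relative to them, the closed regions differed by −19.8 points over both settings (exact permutation p = 0.005, adjusted 0.035). Opened regions moved the other way, at 89.4% with siCtl_DEX and 21.2% with siCtl_Veh. The 1463 regions held by 3 of 4 DMSO and 0 of 4 DEX_DMSO libraries, just outside the rule, moved as the closed regions did. They were at 58.8% with siCtl_DEX and 78.7% with siCtl_Veh, and at 60.6% with siGATA6_DEX and 74.0% with siGATA6_Veh. The lower share with DEX is thus not particular to the closed regions.

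**Figure D2:**
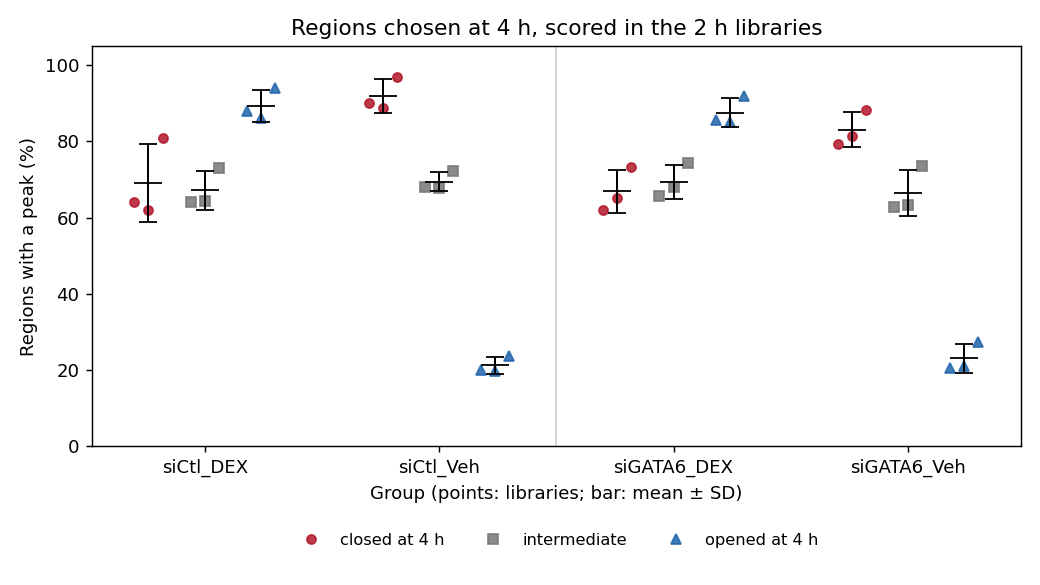
Share of regions with a peak (y axis, percent) in each library of the GATA6 experiment (points) for closed, intermediate and opened regions, with the mean ± SD of 3 libraries as bars. In both siRNA settings the closed regions sit lower with DEX (69.0% and 66.8%) than with vehicle (91.8% and 83.0%).

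On average 69.0% of the closed regions still held a peak in the siCtl_DEX libraries, after 2 h of DEX. These libraries had longer lists than the DEX_DMSO libraries, at 120550 against 98808 peaks on average. Their mean background level was also higher, at 0.595 against 0.273. Time, experiment and depth therefore cannot be told apart in a comparison with 4 h. In control siRNA cells 334 of the 728 (45.9%) held a peak in 3 of 3 siCtl_DEX and 3 of 3 siCtl_Veh libraries. All 12 libraries of the experiment held a peak in 247 (33.9%), and in 73912 of all 189959 regions. By group, 3 of 3 siCtl_DEX libraries held 47.4% of closed and 48.2% of all regions, and 3 of 3 siCtl_Veh libraries held 82.4% and 47.6%. In 337 (46.3%) fewer siCtl_DEX than siCtl_Veh libraries held a peak, and in 21 (2.88%) more did. Intermediate regions were split nearly evenly, with fewer in 25.4% and more in 20.3%. With GATA6 siRNA, fewer siGATA6_DEX than siGATA6_Veh libraries held a peak in 268 closed regions (36.8%) and more in 32 (4.40%), against 19.5% and 25.2% of intermediate regions.

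Complete loss at 2 h, from all 3 vehicle libraries and with no DEX library left, was met by 35 closed regions (4.81%) in control siRNA cells, where 0.542% of all regions met it, and by 22 (3.02%) in GATA6 siRNA cells, where 0.369% did. Gains in the opposite sense numbered 0 in both settings (1.99% and 1.92% of all regions). Few closed regions could gain, since only 4 held no peak in any siCtl_Veh library and 52 in any siGATA6_Veh library. Of all regions, 35.0% and 36.1% held none there, so these counts of 0 say little. Since many regions hold no peak to lose, the share among those held by all 3 vehicle libraries is the closer comparison. There it was 35 of 600 closed regions (5.83%), against 1.76% of intermediate regions, in control siRNA cells, and 22 of 523 (4.21%), against 1.31%, in GATA6 siRNA cells. The 35 regions had a median percentile in DMSO of 22.2, against 28.3 for the 334 that stayed in all 6 libraries, and the 22 regions had 28.5.

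The loss was complete in both siRNA settings at 5 closed regions (0.687%; 0.0384% of all regions). They lie inside HOXB3 at chr17:48582530-48582911, between DDIT4 and DNAJB12 at chr10:72310822-72310987, 34885 bp from ATP6V1G1, a subunit of the vacuolar proton pump, at chr9:114552796-114552971, 34052 bp from ANKRD30B at chr18:14975110-14975264, and 980117 bp from CDH2, the N-cadherin gene, at chr18:29157171-29157323. At HOXB3 the fold was 3.56, 4.16 and 3.61 in the siGATA6_Veh libraries and 4.89, 4.16 and 5.49 in the siCtl_Veh libraries, with no peak in any DEX library. The other HOXB regions kept part of their peaks: the one at chr17:48572879-48573074 held 2 of 3 siCtl_DEX and 3 of 3 siCtl_Veh libraries, and the one at chr17:48547486-48547759 held 2 of 3 in each of those groups.

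Some regions were lost in only one of the settings, and this difference was not tested per region. A region inside VAV3, a guanine nucleotide exchange factor (chr1:107703342-107703532), held a peak in 0 of 3 siCtl_DEX and 3 of 3 siCtl_Veh libraries, and in 2 of 3 siGATA6_DEX and 3 of 3 siGATA6_Veh libraries. The region 147711 bp from NNT, a mitochondrial transhydrogenase (chr5:43854999-43855215), held 3 of 3 siCtl_DEX and 3 of 3 siCtl_Veh libraries, but 0 of 3 siGATA6_DEX and 3 of 3 siGATA6_Veh libraries. Over all closed regions the DEX difference was 6.59 points smaller with GATA6 siRNA, which was not past the threshold (permutation p = 0.366, adjusted 0.394). Relative to intermediate regions it was 1.52 points (permutation p = 0.649), and with a −log10 q of at least 5 it was 0.0998 points (permutation p = 0.981). Over all closed regions without siCtl_DEX replicate 3 the value was 12.5 points (permutation p = 0.0340), so the result changed with 1 library left out. Replicate 3 had the highest share in every group of this experiment, so leaving it out of siCtl_DEX alone unbalanced the groups. The interaction was not tested with a replicate block.

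The 247 regions that all 12 libraries still held were lower in rank with DEX. Among the 73912 regions common to the 12 libraries, their median percentile of fold was 11.3, 11.3 and 10.8 in the siCtl_DEX libraries, against 25.8, 24.8 and 22.8 in the siCtl_Veh libraries. It was 14.6, 13.4 and 14.0 in the siGATA6_DEX libraries, against 25.8, 28.1 and 23.2 in the siGATA6_Veh libraries. The groups did not overlap, while intermediate regions stayed at mean percentiles of 15.0 with siCtl_DEX and 15.5 with siCtl_Veh. The 607 common regions held by 4 DMSO and 1 DEX_DMSO libraries moved the same way, with medians of 18.1, 18.04 and 18.6 in the siCtl_DEX libraries, against 27.1, 28.3 and 28.1 in the siCtl_Veh libraries. All 3 siCtl_DEX ranks lay below all 3 siCtl_Veh ranks in 85 of the 247 (34.4%; 8.69% of all common regions), and the opposite held in 2 (9.1% of all common regions). With GATA6 siRNA the counts were 100 (40.5%; 9.65% of all common regions) and 3 (8.42%). The measure was chosen after the shares were seen, and it has no p.

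**Figure D3:**
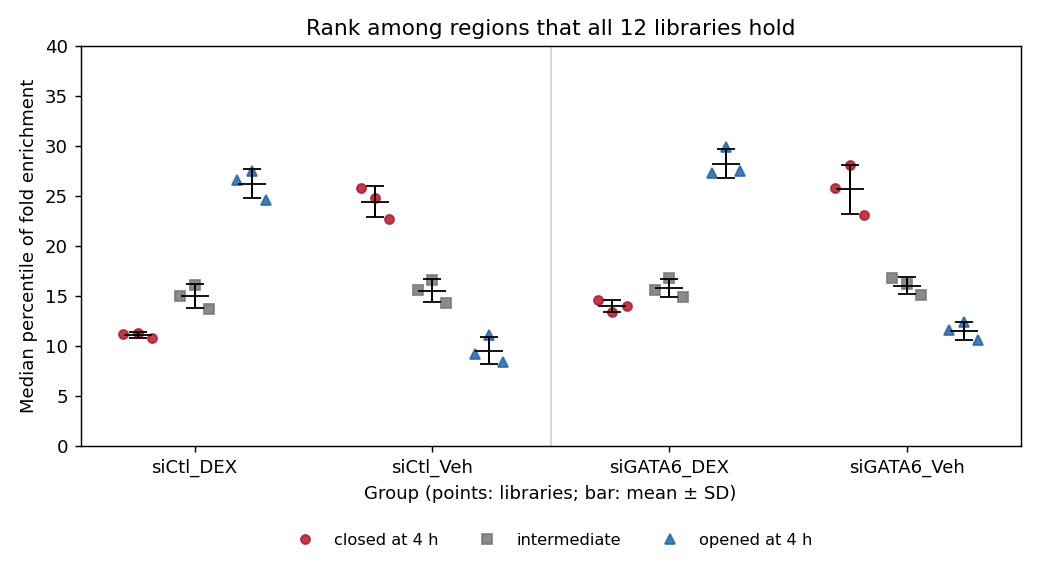
Median percentile of fold enrichment (y axis) in each of the 12 libraries of the GATA6 experiment (points, with mean ± SD bars) among the 73912 regions that all of them hold, for closed (247), intermediate (6818) and opened (169) regions. The closed regions lie at 11.1 with siCtl_DEX and 24.4 with siCtl_Veh, and at 14.0 with siGATA6_DEX and 25.7 with siGATA6_Veh.

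Single regions that all 12 libraries held differed in how far their ranks moved. At the region nearest CITED2, the strongest closed region, the percentile was 62.0, 63.8 and 46.8 in the siCtl_DEX libraries, against 86.0, 86.4 and 84.8 in the siCtl_Veh libraries, with no overlap. In the GATA6 siRNA cells it was 67.8, 84.2 and 81.2 with siGATA6_DEX, against 88.5, 83.1 and 93.5 with siGATA6_Veh, and these groups overlapped. At the region near MYLK4 it was 24.3, 35.1 and 21.1 in the siCtl_DEX libraries, against 52.2, 47.5 and 45.6 in the siCtl_Veh libraries, with no overlap. The region near SPHKAP stood at 34.6, 37.8 and 46.8 in the siCtl_DEX libraries, against 64.6, 35.8 and 68.5 in the siCtl_Veh libraries, which overlapped. A region inside ADGRL2 (chr1:81717156-81717416) stood at 18.1, 19.97 and 10.1 in the siCtl_DEX libraries, against 50.2, 56.6 and 37.8 in the siCtl_Veh libraries. The region inside ZBTB16, a gene that DEX induces in many cells, stood at 4.53, 2.09 and 5.27 in the siCtl_DEX libraries, against 15.3, 10.99 and 21.996 in the siCtl_Veh libraries.

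Among the list genes, the MET region at chr7:116801176-116801340 stood at 33.2, 31.8 and 29.2 in the siCtl_DEX libraries, against 18.97, 49.3 and 29.7 in the siCtl_Veh libraries, which overlapped. At JUN the percentile was 2.56, 0.877 and 0.387 in the siCtl_DEX libraries, against 3.56, 18.4 and 4.23 in the siCtl_Veh libraries. These groups did not overlap, but most values were near the bottom of the ranking. With GATA6 siRNA it was 3.44, 10.7 and 4.43 with siGATA6_DEX, against 9.97, 19.1 and 8.44 with siGATA6_Veh, which overlapped. The CXCL8 region held a peak in 3 of 3 siCtl_DEX and 3 of 3 siCtl_Veh libraries, and in 1 of 3 siGATA6_DEX and 3 of 3 siGATA6_Veh libraries. The region shared by AXL and TGFB1 held one in 3 of 3 siCtl_DEX and 3 of 3 siCtl_Veh libraries, and in 3 of 3 siGATA6_DEX and 2 of 3 siGATA6_Veh libraries. The TP63 region held one in 0 of 3 siCtl_DEX and 2 of 3 siCtl_Veh libraries and the LTBP2 region in 0 of 3 siCtl_DEX and 3 of 3 siCtl_Veh libraries.

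The lower share of closed regions with a peak under GATA6 siRNA passed the threshold relative to intermediate regions but not on its own. Over both DEX settings the share itself was 5.49 points lower with GATA6 siRNA (difference −5.49, exact permutation p = 0.215, adjusted 0.251). With a replicate block its exact permutation p was 0.09375. The siGATA6_Veh libraries all lay below the siCtl_Veh libraries, while siGATA6_DEX and siCtl_DEX overlapped. Regions held by 4 DMSO and 1 DEX_DMSO libraries were also lower with GATA6 siRNA. They were at 88.0% with siGATA6_Veh and 92.6% with siCtl_Veh, and at 80.4% with siGATA6_DEX and 82.2% with siCtl_DEX. Relative to intermediate regions the difference of the closed regions was −5.11 points (exact permutation p = 0.01, adjusted 0.0467). It ran over −6.15 to −3.61 points with any 1 library left out (exact permutation p = 0.005 to 0.03). In vehicle, 29 closed regions (3.98%) held a peak in 3 of 3 siCtl_Veh and 0 of 3 siGATA6_Veh libraries, where 0.626% of all regions did, and 0 showed the opposite (0.242%). Only 4 closed regions held no peak in any siCtl_Veh library, so few could show the opposite. Among regions held by all siCtl_Veh libraries the loss was met by 4.83% of closed and 2.93% of intermediate regions.

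The BNC2 region is the strongest of those 29. Its fold was 6.43, 6.06 and 6.91 in the siCtl_DEX libraries and 10.1, 14.7 and 14.4 in the siCtl_Veh libraries, and no siGATA6_DEX or siGATA6_Veh library held a peak there. A region inside SEMA3A, a secreted semaphorin of axon guidance (chr7:84021393-84021699), held 0 of 3 siCtl_DEX and 3 of 3 siCtl_Veh libraries, and 0 of 3 in both siGATA6 groups. Regions inside DGKI, a diacylglycerol kinase (chr7:137580367-137580583), and CAMK4, a calmodulin-dependent kinase (chr5:111386284-111386613), named after their values were seen, were the next by rank. DGKI held 0 of 3 siCtl_DEX and 3 of 3 siCtl_Veh libraries, CAMK4 held 3 of 3 in both, and both held 0 of 3 in each siGATA6 group.

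Under BRM014 the closed regions were almost without peaks, with or without DEX. The share with a peak was 7.42%, 6.18%, 3.16% and 3.57% in the DEX_BRM014 libraries, against 8.24%, 12.9%, 11.8% and 3.85% in the BRM014 libraries. The difference of −4.12 points (5.08 ± 2.05% and 9.20 ± 4.09%; SD, n = 4 each) was not past the threshold (exact permutation p = 0.114, adjusted 0.145), and the groups overlapped. Without BRM014 replicate 4 it was −5.91 points (exact permutation p = 0.0286). Intermediate regions held a peak at 12.9% with DEX_BRM014 and 11.6% with BRM014, and relative to them the difference was −5.38 points (exact permutation p = 0.0286, the smallest possible, adjusted 0.0667). The groups had 55519 ± 6573 peaks with DEX_BRM014 and 53586 ± 9441 with BRM014. Both had shorter lists than the DMSO libraries (94069 ± 4805), and how far this set the shares was not tested. BRM014 against DMSO was not tested, since the rule used the DMSO libraries.

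By region, 589 closed regions (80.9%) held a peak in 0 of 4 BRM014 libraries and 643 (88.3%) in 0 of 4 DEX_BRM014 libraries, with 559 in neither group. Of all regions, 59.4% and 58.5% held none in these groups. Of the regions held by 4 of 4 DMSO libraries, 24.5% and 25.8% held none, but these include the 56702 kept regions, which were stronger. Regions held by 4 DMSO and 1 DEX_DMSO libraries, nearer in strength, held a peak at 9.62% with DEX_BRM014 and 12.3% with BRM014. The closed regions were at 5.08% and 9.20%. Fewer DEX_BRM014 than BRM014 libraries held a peak in 111 closed regions, and more in 36. Among 18 closed regions held by 4 of 4 BRM014 libraries, 2 were held by 0 of 4 DEX_BRM014 libraries (0.275% of closed regions, 0.0763% of all regions) and 6 by 4 of 4. The opposite, 0 of 4 BRM014 and 4 of 4 DEX_BRM014 libraries, was met by 0 closed regions (0.17% of all regions). The 2 are the region near MYLK4, with folds of 6.88, 6.80, 4.57 and 4.00 in the BRM014 libraries, and a region 326756 bp from RND3, an atypical small GTPase (chr2:150141313-150141560), with folds of 6.22, 6.16, 5.98 and 6.16. A region at chr14:43735421-43735826, at a distance of 768525 bp from FSCB, held a peak in 4 of 4 DEX_BRM014 and 4 of 4 BRM014 libraries, and a region at the start of SLC9A7, a sodium-proton exchanger (chrX:46759052-46759266), in 2 of 4 DEX_BRM014 and 4 of 4 BRM014 libraries. The regions inside MAL2 and near HAO1, the other named regions held by 4 of 4 BRM014 libraries, kept a peak in 2 of 4 and 3 of 4 DEX_BRM014 libraries.

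Closed regions within 1 kb of a gene end kept a peak more often under BRM014. The mean share over the BRM014 libraries was 16.3% for these 75 and 8.38% for the 653 others. Kept regions were at 85.5% near gene ends and 61.3% elsewhere. Across classes, the mean share with a peak in each group was higher the more DEX_DMSO libraries held a region, in the 4 groups at 2 h and in both BRM014 groups.

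**Figure D4:**
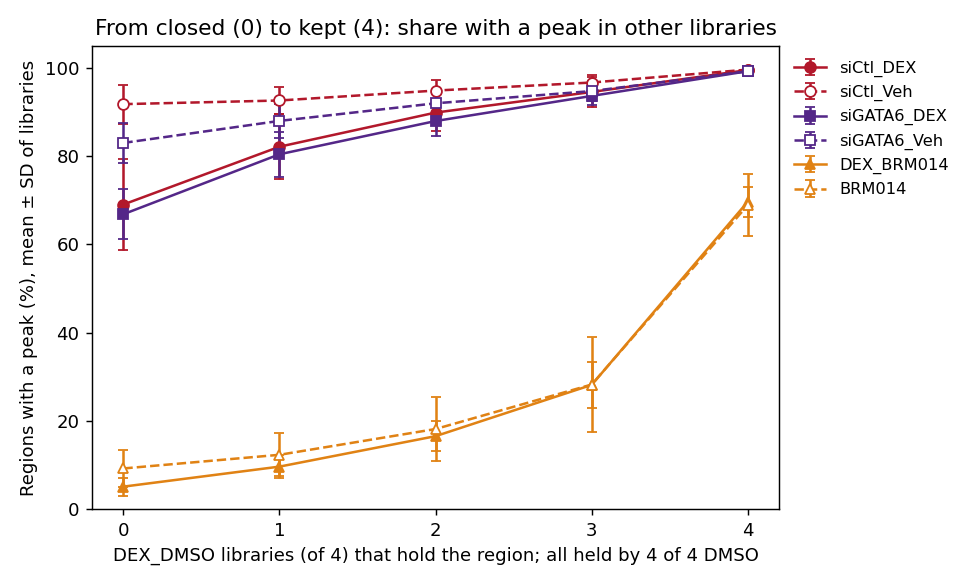
Share of regions with a peak (y axis, percent, mean ± SD of 3 or 4 libraries) in the GATA6 experiment and under BRM014, for regions held by 4 of 4 DMSO and by 0 (closed) to 4 (kept) DEX_DMSO libraries (x axis). The closed regions have 69.0% with siCtl_DEX and 91.8% with siCtl_Veh, and 5.08% with DEX_BRM014 and 9.20% with BRM014, and kept regions have 69.7% with DEX_BRM014 and 68.9% with BRM014.

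Knockdown of both ATPases, in cells that got no DEX, also left few peaks at the closed regions. The share was 23.2%, 15.0%, 7.28% and 11.3% in the siBRG1_siBRM libraries, against 70.5%, 62.9%, 51.6% and 42.9% in the siCtl_only libraries, with no overlap. The difference of −42.8 points (14.2 ± 6.79% and 57.0 ± 12.2%; SD, n = 4 each) had an exact permutation p of 0.0286, the smallest possible, and 0.0667 after adjustment, above the threshold of 0.05. Intermediate regions were at 10.2% with siBRG1_siBRM and 33.5% with siCtl_only, and relative to them the difference was −19.4 points (exact permutation p = 0.0286, adjusted 0.0667). Regions held by 4 DMSO and 1 DEX_DMSO libraries fell at least as far, at 14.8% with siBRG1_siBRM and 62.9% with siCtl_only. The lower share after knockdown is thus not particular to the closed regions. The siBRG1_siBRM libraries had 50934 ± 12122 peaks and the siCtl_only libraries 85769 ± 2782, and how far shorter lists set the shares was not tested.

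Complete loss after the knockdown, from 4 of 4 siCtl_only libraries with no siBRG1_siBRM library left, was met by 82 closed regions (11.3%; 4.42% of all regions), and the opposite by 0 (0.0168%). Among regions held by all siCtl_only libraries the share was 41.4% of 198 closed regions, above the 9.72% of kept regions. It lay below the 49.8% of intermediate regions and the 52.4% of regions held by 4 DMSO and 1 DEX_DMSO libraries. The region nearest CITED2 was among the closed regions lost, with folds of 8.86, 15.0, 14.3 and 10.3 in the siCtl_only libraries. The regions near MYLK4 and inside BNC2 kept a peak in 4 of 4 siBRG1_siBRM libraries, as did the HOXB3 region at chr17:48572879-48573074. In all, 37 closed regions (5.08%; 15.5% of all regions) held a peak in 4 of 4 and 512 (70.3%; 64.0% of all regions) in 0 of 4 siBRG1_siBRM libraries.

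**Figure D5:**
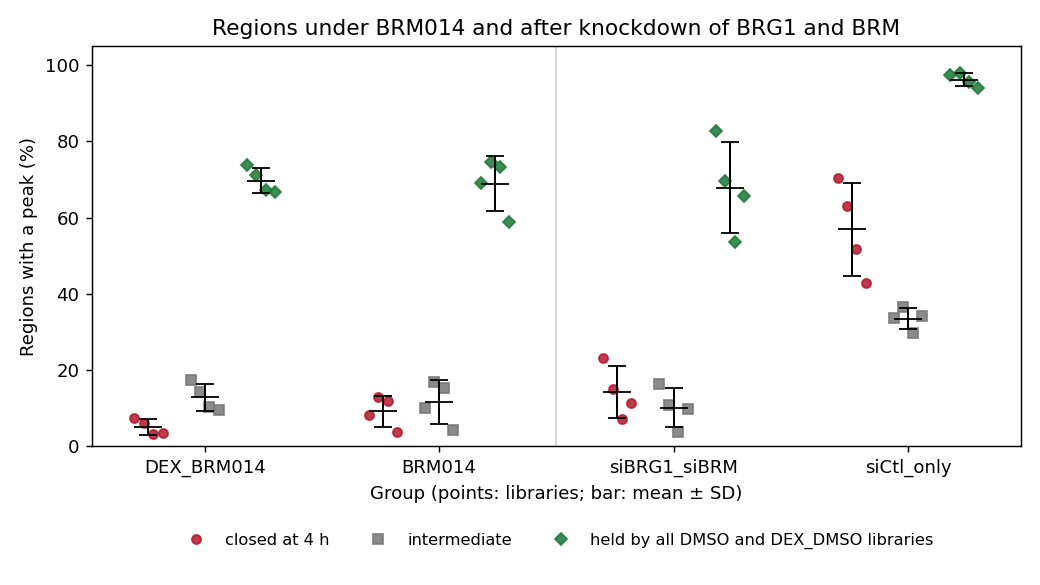
Share of regions with a peak (y axis, percent) in each library under BRM014 and after siRNA against BRG1 and BRM (points, with mean ± SD of 4 libraries as bars), for closed, intermediate and kept regions. The closed regions lie at 14.2% with siBRG1_siBRM and 57.0% with siCtl_only, and kept regions at 67.9% and 96.2%.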

How the data were processed

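ATAC-seq peak lists of 36 BT549 libraries in 10 groups, taken from the sample titles, were used. Per the labels' protocols, each library of 50000 cells was to have about 25 M read pairs, 50 bp each way. The submitters' processing notes name the tools bcl2fastq, SAMtools, MACS2 and HOMER and the build GRCh38 (hg38), per the labels. The aligner, the shift of reads, duplicate handling and peak-calling settings were not given in the sources used here. The authors deposited 1 list per library, each peak with a score, a fold enrichment ratio over background, and its −log10 p and −log10 q. The score was not used.

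Peaks on chromosomes 1 to 22 and X of the 16 libraries of the BRM014 experiment were merged where they overlapped, and a region counted as present in a library with an overlap of at least 1 bp. Fold was that of the strongest peak in the region, and its percentile was taken within the library. No depth per library is known. A background level was recovered from fold and p of the 1000 weakest peaks under a Poisson model (tolerance 0.005, 100% recovered).

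Shares of closed regions with a peak were set against each other in exact permutation tests (two-sided) over libraries, within strata where both siRNA or DEX settings entered, and the interaction by 100000 permutations of residuals, with Benjamini-Hochberg adjustment over 14 tests. The calculations were tested on simulated data. P-values rest on the spread between libraries, which their titles number as biological replicates. Genes came from a RefSeq table and promoter sequences from RefSeq (GRCh38.p14), neither of which gives the sequence of other regions. Python 3.11.15, numpy 2.4.6, pandas 2.3.3 and scipy 1.17.1 were used.

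The closed regions and the 16 gene lists were chosen with earlier results of these data known. Regions named are the 10 with the highest rank in DMSO, those of the 8 genes with most closed regions, up to 4 genes per list, up to 10 lost at 2 h, up to 6 held by all BRM014 or DEX_BRM014 libraries, up to 6 at gene ends, and 9 genes given in any case. Some items that this rule names are not reported here. Alternatives were equal numbers of best peaks, a −log10 q of at least 5, other rules for presence, other gene windows, a replicate block and leaving out each library.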

Additional observations from a re-analysis of the deposited data

Results flagged for a closer look

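One value stood apart from the others of its group by more than Dixon's criterion allows. The siCtl_only replicate 3 library had 81639 peaks, and the other 3 libraries of that group had 87609, 87196 and 86631. At 51.6% its share of closed regions with a peak lay between those of the others. This was 1 flag in 14 groups of 4 examined, and chance flags about 1 in 20.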

How the results depend on the processing

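The count of closed regions depends on the rule: it was 728 as reported, 2191 when 3 of 4 DMSO libraries sufficed, 477 with an equal number of best peaks per library (41026), and 963 to 1231 when 1 library was left out, passing 1.5 times the reported count without DEX_DMSO replicate 1 (1134), DMSO replicate 1 (1231) or DMSO replicate 3 (1160), since fewer libraries must then meet it. Of the 477 regions, 476 held a peak of the full list in at least 1 DEX_DMSO library, so they are mostly other, stronger regions. In them DEX at 2 h gave −0.489 points with control and −1.96 with GATA6 siRNA, the interaction reversed to −1.47 points (permutation p = 0.00182), GATA6 siRNA gave −1.64 points (exact permutation p = 0.005) and DEX under BRM014 −13.8 points (exact permutation p = 0.0286). In the GATA6 experiment their shares were near the ceiling, from 97.1% with siGATA6_DEX to 99.9% with siCtl_Veh. The differences in that experiment therefore had little room. The cause of the changed values was not tested. With a −log10 q of at least 5 there were 668 closed regions and the difference with control siRNA was −14.8 points (exact permutation p = 0.2), and over both settings −14.7 (exact permutation p = 0.01). Relative to intermediate regions, GATA6 siRNA (−5.11 points) and DEX under BRM014 (−5.38 points) passed an unadjusted 0.05. Leaving out 1 library gave −28.7 to −19.3 points for DEX with control siRNA, −19.3 to −13.6 with GATA6 siRNA, −22.4 to −17.7 over both (exact permutation p = 0.005 to 0.01), 3.11 to 12.5 for the interaction, −7.23 to −2.53 for GATA6 siRNA, −5.91 to −2.88 under BRM014 and −47.5 to −38.3 for the ATPase knockdown. Replicate numbers did not pair the libraries by the criterion used, with a limit of 0.1: correlations of same-numbered libraries were 0.0231 to 0.113 in the GATA6 experiment. Those of differently numbered libraries were −0.0803 to 0.0263. Between the siRNA settings 3 of 3 libraries correlated best with their own number, and between DEX and vehicle 2 of 3 did. In the GATA6 experiment replicate 3 had the highest share of closed regions in every group. It was 80.9% with siCtl_DEX, 96.8% with siCtl_Veh, 73.2% with siGATA6_DEX and 88.2% with siGATA6_Veh. A pairing by number thus remains possible, and the main tests did not use it. With a replicate block, the knockdown difference of −42.8 points had an exact permutation p of 0.125, the smallest that 4 pairs allow, and DEX over both siRNA settings had 0.03125. Counting ends of protein-coding genes only, 93.4% of closed regions were distal, and within 10 kb 9 list genes had a closed region. Peak lists hold no read counts, so a region just under the caller's threshold cannot be told apart from one without signal.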

Other observations

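Of the 768 genes with a closed region within 50 kb, 191 also had an opened region within 50 kb. Of all 19974 protein-coding genes, 2871 (14.4%) had an opened region that near. The overlap was not tested. The median distance from a closed region to the nearest opened region was 339316 bp, against 323593 bp for all regions. Regions held by 4 of 4 DMSO and 1 of 4 DEX_DMSO libraries, which the rule left out, held a peak at 82.2% with siCtl_DEX and 92.6% with siCtl_Veh, and at 80.4% with siGATA6_DEX and 88.0% with siGATA6_Veh. Among the regions held by all 3 siCtl_Veh libraries, complete loss in siCtl_DEX was met by 1.77% of them.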
